A study of Homo sapiens with 36 samples.

Results

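The genes described here encode 8 enzymes of steroid synthesis and androgen metabolism: CYP11A1, STS, SRD5A1, SRD5A3, HSD17B6, HSD17B11, HSD17B4 and HSD11B2. They were taken by symbol from a table of 60676 genes, and each symbol matched 1 gene. Gene counts came from LNCaP cells, an androgen-sensitive human prostate cancer line, grown in RPMI 1640 with fetal bovine serum. All results are from this single line. The 4 treatments were DMSO (the vehicle), 3 µM enzalutamide (an androgen receptor antagonist), 3 µM olaparib (an inhibitor of the PARP enzymes), and the combination of both drugs. Each was given for 8, 24 or 72 h to 3 cultures, which makes 12 groups and 36 libraries.

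Steroid hormones are built from cholesterol. CYP11A1 cuts off the cholesterol side chain in mitochondria, and CYP17A1 and the HSD3B enzymes turn the product into adrenal androgens. From these, 17-beta hydroxysteroid dehydrogenases and 5-alpha reductases form testosterone and dihydrotestosterone, the ligands of the androgen receptor. Prostate cancer cells can take up adrenal precursors such as DHEA sulfate, free them with the sulfatase STS, and dispose of active androgens by oxidation and by UGT2B glucuronidation.

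Totals per library ran from 4.15 to 15.4 M counts (median 9.63 M). The libraries of each group were spread over 3 sequencing lanes named in the labels, 1 of each group per lane. Replicate 1 of DMSO at 72 h (4.66 M counts), replicate 1 of olaparib at 8 h (4.15 M) and replicate 3 of the combination at 8 h (5.39 M) stood apart from the other libraries. All 3 were on lane 6. In every group the lane 6 library had the lowest total (4.15 to 9.32 M), and the main fit had no term for lane. The mitochondrial share of counts was 1.54% in the DMSO 72 h library and 3.97% to 7.05% in the others. All 8 markers of a luminal prostate line reached a mean of 1 CPM (counts per M counts of the library, after TMM scaling), with a summed level of 3338 to 6004 CPM per library. Of 6 markers of adrenal or gonadal steroid-making cells none did, 3 had no count in any library, and their sum was 0 to 0.483 CPM. Of 4 basal and 4 blood markers none reached 1 CPM (sums of 0 to 2.15 and 0 to 0.217 CPM), against 2 of 5 stromal markers (COL1A1 and COL3A1; 13.8 to 31.2 CPM) and 1 of 3 endothelial markers (VWF; 2.72 to 10.2 CPM). Enzalutamide lowered the androgen receptor target KLK3 from 745 ± 67.1 CPM (mean ± SD, n = 3) to 7.25 ± 1.33 at 72 h (edgeR adjusted p = 1.9e-30).

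The 8 genes fell into 2 bands of abundance when counts were divided by library size and exon length. HSD11B2 (16.7 CPM per kb, mean of 36 libraries), SRD5A3 (14.6), HSD17B4 (13.1) and SRD5A1 (7.27) formed the upper band. STS (1.21 CPM per kb), HSD17B11 (0.970), HSD17B6 (0.613) and CYP11A1 (0.250) lay below it. CYP11A1 had a mean of 0.850 CPM, under the limit of 1 CPM set for a level that can be judged, with 292 counts in all and no count in 4 libraries. It passed the expression filter over the 36 libraries all the same. Its counts are therefore printed in full, and its falls at 72 h are given with the counting error. Its other changes carry no counting interval. Its highest groups were olaparib at 72 h (2.69 CPM) and DMSO at 8 h (1.61 CPM). CYP11A1 did not pass the filter on enzalutamide and DMSO at 72 h alone. HSD17B6 (4 to 22 counts per library) and HSD17B11 (8 to 40) passed the limit with few counts, and only large changes could be seen in them. The other 5 genes had at least 44 counts in every library.

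**Figure D1:**
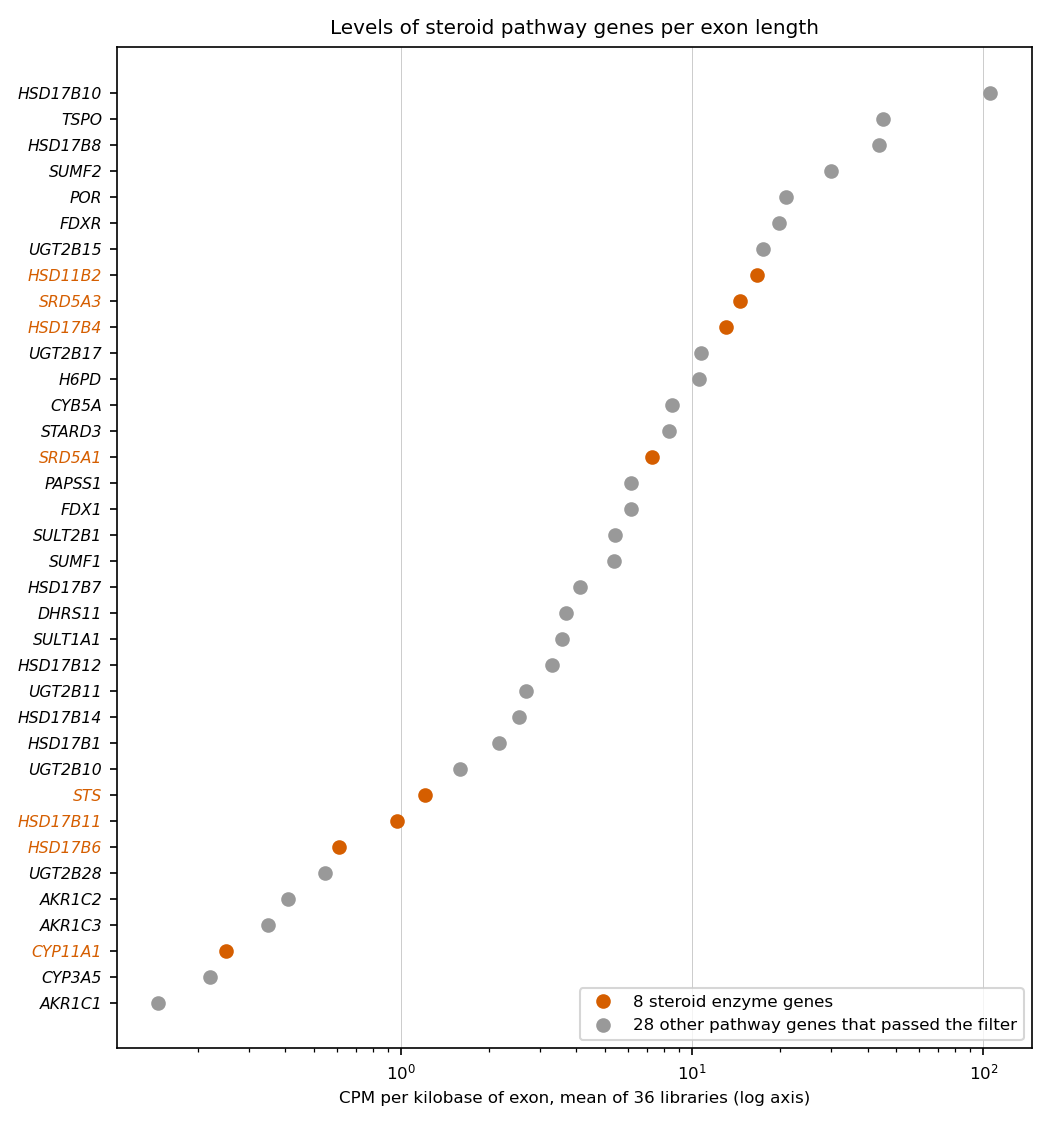
Mean TMM-scaled CPM per kilobase of exon over 36 libraries, on a log axis, for the 8 enzyme genes (orange) and the 28 other steroid pathway genes that passed the expression filter (grey). HSD11B2, SRD5A3, HSD17B4 and SRD5A1 lie between 7.27 and 16.7 CPM per kb, STS at 1.21, and CYP11A1 near the low end at 0.250.

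Over the 9 comparisons of a treatment with DMSO of the same hour, 9 of 72 tests of these genes passed an adjusted p of 0.05 (edgeR quasi-likelihood test, adjusted over all 15744 genes tested), 3 of them for CYP11A1. Of all genes tested, the share that passed ran from 1.12% (olaparib at 24 h) to 42.5% (combination at 72 h). The counts are set beside these shares, comparison by comparison, further below. SRD5A1, SRD5A3, HSD17B6 and HSD11B2 passed in none. The comparisons at 1 hour share their DMSO libraries, so they are not independent of each other. The changes and their intervals are drawn in the plot of log2 fold changes, and the libraries themselves in the plot of levels by group.

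**Figure D2:**
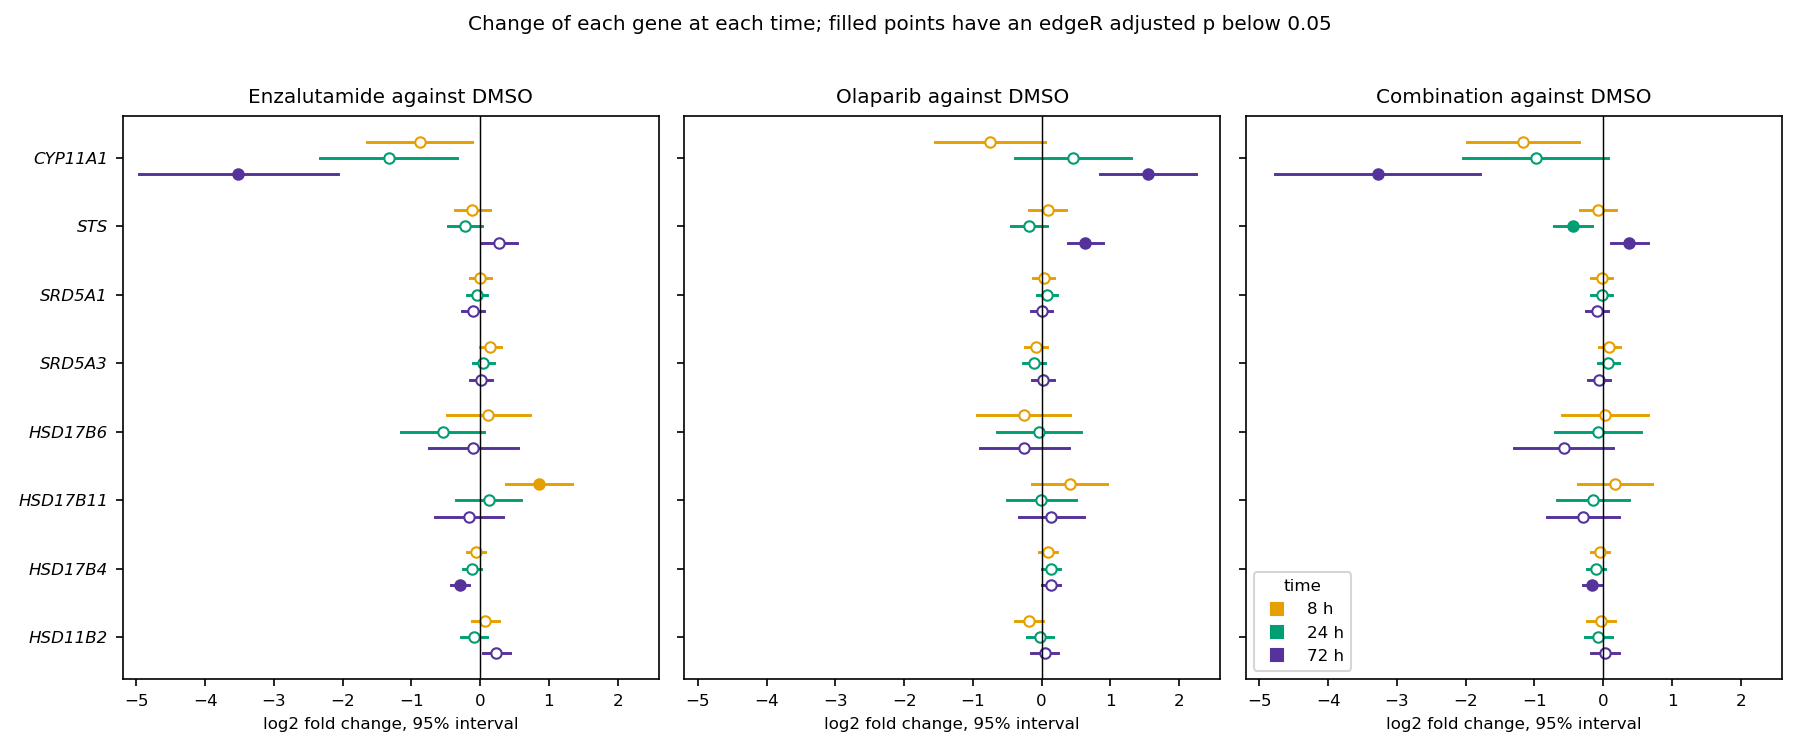
Log2 fold change of each gene against DMSO of the same hour, with its 95% interval, for enzalutamide, olaparib and the combination at 8, 24 and 72 h; filled points have an edgeR adjusted p below 0.05. CYP11A1 reaches -3.52 with enzalutamide, 1.55 with olaparib and -3.28 with the combination at 72 h, while all points of SRD5A1 lie between -0.10 and 0.08.

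**Figure D3:**
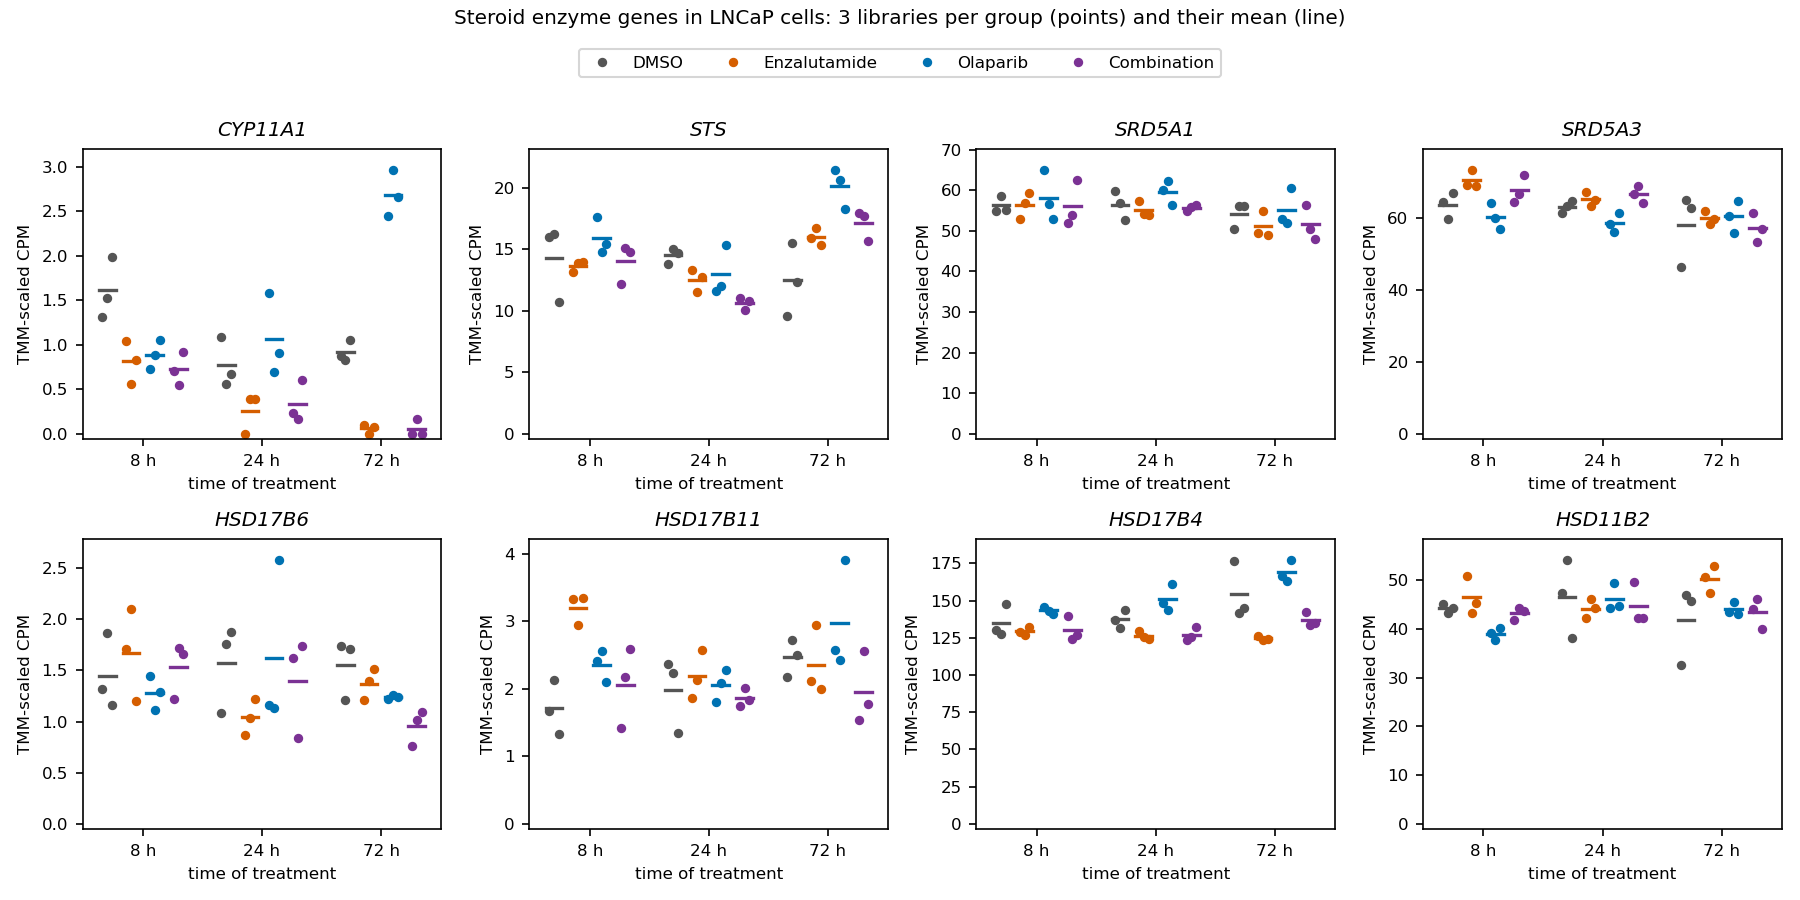
TMM-scaled CPM of the 8 genes in every library (points, 3 per group) with the group mean (line), by hour and treatment, on linear axes. The 3 olaparib libraries at 72 h are the highest group for CYP11A1 (2.44 to 2.96 CPM) and STS (18.3 to 21.5 CPM), and replicate 1 of DMSO at 72 h lies apart for HSD17B4 (177 CPM).

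CYP11A1 encodes the cholesterol side-chain cleavage enzyme, the first step of all steroid synthesis. The gene lies at chr15:74337759-74367646 on the minus strand (GRCh38, Ensembl 99). Its promoter is shown because the gene had the largest fitted change of the 8 and moved in opposite directions with the 2 drugs. The capitals mark TGGCCTT, the reverse complement of AAGGCCA, a motif bound by the steroidogenic factors of the NR5A family, 47 bases before the start site (RefSeq, GRCh38.p14, chr15:74367597-74367896, minus strand).

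CYP11A1: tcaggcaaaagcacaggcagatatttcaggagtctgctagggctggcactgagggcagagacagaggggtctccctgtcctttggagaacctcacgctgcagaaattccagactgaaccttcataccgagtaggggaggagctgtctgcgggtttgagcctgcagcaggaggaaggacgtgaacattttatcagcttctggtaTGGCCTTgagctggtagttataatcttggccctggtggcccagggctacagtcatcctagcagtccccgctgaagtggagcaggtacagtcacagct

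AAGGCCA was found on either strand in 5.14% of 35116 promoter windows of this length, and it was looked for after the sequence had been seen. The NR5A genes themselves were barely counted, with 1 count of NR5A1 and 129 of NR5A2 over the 36 libraries. The androgen receptor core hexamer AGAACA, present in 14.8% of windows on either strand, was not in this window. Neither was the full palindromic receptor motif, the hexamer and its reverse complement 3 bases apart, which 0.00285% of windows hold.

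At 72 h CYP11A1 was nearly gone from both groups that had received enzalutamide and was highest in the group given olaparib alone. Replicates 1 to 3 of DMSO held 4, 11 and 8 counts, against 1, 0 and 1 with enzalutamide. Olaparib cultures held 36, 33 and 15 counts and combination cultures 0, 2 and 0. No library of an enzalutamide-treated group reached the lowest DMSO library, and every olaparib library lay above every DMSO library. In CPM the means were 0.919 ± 0.118 with DMSO, 0.0601 ± 0.0531 with enzalutamide, 2.69 ± 0.262 with olaparib and 0.0567 ± 0.0982 with the combination (SD, n = 3 each).

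With enzalutamide at 72 h CYP11A1 fell by 3.52 ± 0.72 on the log2 scale (SE, edgeR adjusted p = 2.3e-04). As a ratio of counts scaled by library size it was 13.4-fold below DMSO, with a 95% counting interval of 3.32 to 118. The combination was lower than DMSO by a fitted -3.28 ± 0.74 (edgeR adjusted p = 4e-04), a count ratio of 11 (2.72 to 96.3). Replicate 2 was the only combination library with any count, and without it the fitted change was -6.11, a value that depends on the prior count. Both falls were present in each of the 3 lanes, at -1.84 to -2.35 for enzalutamide and -1.45 to -2.58 for the combination (log2 CPM with a prior count of 2). Both calls came from the fit of all 12 groups. On the 2 groups alone CYP11A1 did not pass the filter, so neither fall was tested there. In bulk RNA, fewer cells that express a gene and less of its RNA per cell cannot be told apart.

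Olaparib alone raised CYP11A1 at 72 h by 1.55 ± 0.35 on the log2 scale, 2.92-fold (edgeR adjusted p = 0.0015). The rise was 1.33 to 1.41 in the 3 lanes, and 1.54 (adjusted p = 0.0053) without the 3 libraries that stood apart. DESeq2 gave no adjusted p for this gene in this comparison. The combination lay 32.4-fold below olaparib alone at 72 h by the ratio of counts (2 against 84 counts, 95% interval 8.70 to 272). The fitted change was -4.82 ± 0.57 (edgeR adjusted p = 1.2e-08). Without replicate 2 of the combination it was -7.66, a value that depends on the prior count. Combination libraries held 0, 2 and 0 counts, while olaparib at 72 h was the highest group of this gene (2.69 CPM). Its mean over all libraries was under the limit of 1 CPM. The size of the fall from olaparib to the combination is therefore only loosely bounded.

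At the earlier hours the counts were too few for a firm reading. At 8 h DMSO libraries held 15, 18 and 12 counts, enzalutamide 11, 4 and 9, olaparib 3, 8 and 9, and the combination 7, 6 and 5. All 9 treated libraries lay below the 3 DMSO libraries in CPM (0.543 to 1.05 against 1.32 to 1.99), yet no treatment passed the test, with adjusted p of 0.3, 0.42 and 0.084. At 24 h the counts were 11, 7 and 5 with DMSO, 0, 6 and 6 with enzalutamide, 15, 8 and 6 with olaparib, and 2, 1 and 7 with the combination. Enzalutamide at 24 h gave -1.33 ± 0.49 (edgeR adjusted p = 0.055), which passed when replicate 2 of DMSO was left out (-1.57, adjusted p = 0.048) or with lane in the fit (-1.35, adjusted p = 0.04). The combination against olaparib at 24 h gave -1.44 ± 0.50 (adjusted p = 0.047), and that call was lost without replicate 1 of olaparib (-1.01, adjusted p = 0.34), replicate 3 of olaparib (0.063), or replicate 1 (0.19) or 2 (0.15) of the combination.

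The effect of each drug on CYP11A1 differed between 8 h and 72 h. That of enzalutamide shifted by -2.64 ± 0.86 (edgeR adjusted p = 0.042) and that of olaparib by 2.30 ± 0.53 (adjusted p = 0.0039). The first of these missed the threshold in 12 of 19 alternatives and the second in none of 19. DESeq2 gave no adjusted p for CYP11A1 in either test and is not among the 19. Around CYP11A1, exon bases are shared with PPIAP46 (270 bases, 8 counts in all libraries) and with an unnamed gene that had no count, both on the opposite strand. The counting ignored strand.

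The mitochondrial enzyme needs electrons from the carriers FDXR (ferredoxin reductase, also a known p53 target) and FDX1 (ferredoxin). FDXR rose with olaparib at each hour, from 50.9 ± 3.87 to 72.4 ± 6.62 CPM at 8 h (log2 0.53 ± 0.11, edgeR adjusted p = 0.007), from 52.3 ± 2.37 to 107 ± 7.82 at 24 h (1.03 ± 0.11, 1.6e-08) and from 59.8 ± 19.4 to 91.0 ± 3.59 at 72 h (0.66 ± 0.11, 3e-05). The 8 h call was lost without replicate 2 of DMSO (adjusted p = 0.065) or of olaparib (0.094), and the 72 h call when fitted on the 2 groups alone (0.071). FDXR was lower with enzalutamide at 72 h by -0.47 ± 0.12 (adjusted p = 0.0018), with -0.23 (adjusted p = 0.048) when replicate 1 of DMSO, at 82.2 CPM against 48.2 and 49.0 in the others, was left out, and with an adjusted p of 0.098 on the 2 groups alone. FDX1 rose with enzalutamide from 15 ± 0.749 to 22.7 ± 1.03 CPM at 24 h (0.60 ± 0.09, 6.6e-06) and from 15.6 ± 1.79 to 27.4 ± 0.435 at 72 h (0.82 ± 0.10, 1.9e-08). Olaparib alone gave FDX1 changes of -0.13, 0.05 and -0.13 at 8, 24 and 72 h, none past the test (adjusted p = 0.67, 0.93 and 0.46). The combination raised both carriers at 24 and 72 h: FDXR by 1.06 and 0.74 and FDX1 by 0.72 and 0.97 on the log2 scale, all with edgeR adjusted p of 9.1e-07 or less.

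STS encodes steroid sulfatase, which removes sulfate from DHEA sulfate and estrone sulfate. The gene spans chrX:7147237-7804358 on the plus strand. RefSeq has 5 promoter windows for it, and the one that covers the start of the annotated gene is shown because it holds the letters of the androgen receptor hexamer, in capitals as TGTTCT, the reverse complement of AGAACA, 105 bases before the start (GRCh38.p14, chrX:7147040-7147339, plus strand). A second window, at chrX:7251994-7252293, holds AGAACA 249 bases before its start, with the NR5A motif AAGGTCA (3.92% of all windows) at 145 and TATAAA (7.33%) at 103 bases before it. No other of the 10 windows found for these genes holds the hexamer, and none holds the full motif.

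STS: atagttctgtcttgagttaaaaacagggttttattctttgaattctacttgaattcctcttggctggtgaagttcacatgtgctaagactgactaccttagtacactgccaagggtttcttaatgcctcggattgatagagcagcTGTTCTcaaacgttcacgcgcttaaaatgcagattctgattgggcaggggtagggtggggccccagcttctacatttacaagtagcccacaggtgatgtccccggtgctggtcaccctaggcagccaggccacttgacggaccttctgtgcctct

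STS was highest after 72 h of olaparib. Replicates 1 to 3 of DMSO at 72 h stood at 9.57, 15.5 and 12.4 CPM, enzalutamide at 15.9, 16.8 and 15.4, olaparib at 21.5, 20.7 and 18.3, and the combination at 18, 17.7 and 15.7. The olaparib libraries lay above all others of that hour, the combination libraries lay above all DMSO libraries, and the enzalutamide group overlapped DMSO. The rise with olaparib was 0.63 ± 0.13 on the log2 scale, 1.55-fold (edgeR adjusted p = 4e-04), and 0.46 to 0.92 in the 3 lanes. Without replicate 1 of DMSO, the lowest library, it was 0.52 (adjusted p = 0.0036), and on the 2 groups alone 0.64 with an adjusted p that rounds to 0.05 and did not pass.

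The combination at 72 h raised STS by 0.38 ± 0.13 (edgeR adjusted p = 0.019). That call was lost without replicate 1 of DMSO (0.27, adjusted p = 0.11), replicate 3 of DMSO (0.058) or replicate 2 of the combination (0.073), and on the 2 groups alone (0.081). Enzalutamide at 72 h gave 0.28 with an adjusted p of 0.12, which became 0.50 (adjusted p = 0.01) without replicate 2 of DMSO. The combined effect lay below the sum of the single effects by -0.53 ± 0.18, which did not pass the test (adjusted p = 0.12; -0.76 and 0.014 without replicate 2 of DMSO).

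At 24 h STS went the other way in the combination. DMSO libraries stood at 13.8, 15 and 14.7 CPM and combination libraries at 11, 10.0 and 10.8, with no overlap. The difference was -0.44 ± 0.14 on the log2 scale (edgeR adjusted p = 0.015) and -0.35 to -0.54 in the lanes. It missed the threshold without replicate 2 of DMSO (adjusted p = 0.061) or replicate 2 of the combination (0.05). Enzalutamide (12.5 ± 0.923 CPM) and olaparib (13 ± 2.04) at 24 h had adjusted p of 0.23 and 0.71, and at 8 h the 4 groups had means of 13.7 to 15.9 CPM. From 8 h to 72 h the olaparib effect shifted by 0.55 with an adjusted p of 0.05 after rounding, just above the threshold, and it passed in 5 of 20 alternatives. STS shares 31 exon bases with PUDP on the opposite strand, and its pseudogene STSP1 had no count.

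The 5-alpha reductase genes stayed level. SRD5A1 (chr5:6633427-6674386, plus strand) makes dihydrotestosterone from testosterone and is the form that prevails in prostate cancer, while SRD5A2, the form of the normal prostate, had 8 counts in all 36 libraries. SRD5A1 stood at 48.1 to 64.9 CPM in every library, its 12 group means differed at most 1.16-fold, and each pair of neighbours in the order of groups overlapped. Its 95% intervals over the 9 comparisons with DMSO ran from -0.26 to 0.23, so changes beyond 0.837-fold or 1.17-fold lay outside them.

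SRD5A3 (chr4:55346242-55373100, plus strand) reduces polyprenol to dolichol for protein glycosylation and has also been described as a steroid reductase. Its libraries stood at 46.3 to 73.3 CPM and its group means differed at most 1.23-fold. The lowest library was replicate 1 of DMSO at 72 h, at 46.3 CPM against 64.9 and 62.8 in the others of its group. All 9 comparisons with DMSO missed the threshold, with intervals between -0.27 and 0.30. Without that library the combination at 72 h was lower than DMSO by -0.18 (edgeR adjusted p = 0.036). SRD5A3 shares 198 exon bases with SRD5A3-AS1, which had 380 counts in all.

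HSD17B6 and HSD17B11, which act on androstanediol, were rare transcripts. HSD17B6 (chr12:56752161-56787790, plus strand) can turn androstanediol back towards dihydrotestosterone. Its libraries ranged from 0.765 to 2.58 CPM, its group means from 0.959 ± 0.172 in the combination at 72 h to 1.67 ± 0.449 with enzalutamide at 8 h, and 10 of 11 neighbouring groups overlapped. No comparison with DMSO passed, and the intervals, from -1.30 to 0.72, reach from 0.407-fold to 1.65-fold. It shares 132 exon bases, 5.81% of its length, with PRIM1, which stood at 15 CPM on the opposite strand, so part of its few counts may belong to PRIM1. That part was not tested.

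HSD17B11 (chr4:87336515-87391188, minus strand) oxidises androstanediol to androsterone and sits on lipid droplets. At 8 h its DMSO libraries stood at 1.67, 2.13 and 1.32 CPM and its enzalutamide libraries at 3.32, 2.94 and 3.34. The groups did not overlap, and the rise was 0.86 ± 0.24 on the log2 scale (edgeR adjusted p = 0.034), or 0.60 to 1.04 in the lanes. It was the only one of the 8 genes to pass at that hour, and the call was lost in 8 of 14 alternatives, among them DESeq2 (adjusted p = 0.13), no filter on low counts (0.11), and leaving out replicate 1 or 3 of DMSO or any enzalutamide library (0.053 to 0.16).

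The rise of HSD17B11 was not seen at later hours. Enzalutamide libraries stood at 1.86, 2.13 and 2.57 CPM at 24 h and 2.11, 2.94 and 1.99 at 72 h, within or near the DMSO range of 1.34 to 2.73 CPM at those hours. The enzalutamide effect differed between 72 h and 8 h by -1.02 ± 0.34, with an adjusted p just under the threshold that rounds to 0.05 and was lost in 17 of 20 alternatives. At 8 h the combination libraries stood at 1.42, 2.17 and 2.58 CPM, which gave 0.16 against DMSO (adjusted p = 0.85) and -0.70 against enzalutamide (adjusted p = 0.32).

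HSD17B4 encodes the peroxisomal multifunctional enzyme that breaks down very long chain fatty acids and can oxidise estradiol. It lies at chr5:119452473-119637199 on the plus strand and had the highest CPM of the 8 genes. Its promoter is shown beside that of CYP11A1 because both genes fell with enzalutamide at 72 h, and none of the motifs named above was found in it (RefSeq, GRCh38.p14, chr5:119452247-119452546, plus strand). It holds 19 CG pairs, against 5 in the CYP11A1 window and a median of 14 over all windows.

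HSD17B4: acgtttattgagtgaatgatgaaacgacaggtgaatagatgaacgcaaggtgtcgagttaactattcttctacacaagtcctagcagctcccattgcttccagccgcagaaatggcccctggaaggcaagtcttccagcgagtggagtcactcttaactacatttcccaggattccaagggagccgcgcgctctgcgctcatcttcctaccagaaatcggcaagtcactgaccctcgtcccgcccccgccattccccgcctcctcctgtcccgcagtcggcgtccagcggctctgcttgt

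At 72 h HSD17B4 was lower by a small margin in cells given enzalutamide than in the matched cells without it. Its level was 177, 142 and 145 CPM with DMSO, 126, 124 and 124 with enzalutamide, 167, 163 and 177 with olaparib, and 142, 134 and 135 with the combination. Every enzalutamide library lay below every DMSO library, and every combination library lay below every olaparib library, while the combination and DMSO overlapped. Against DMSO, enzalutamide gave -0.30 ± 0.07 (edgeR adjusted p = 5.4e-04), or -0.20 (adjusted p = 0.0092) without replicate 1 of DMSO, the highest library. Fitted on the 2 groups alone it gave -0.30 with an adjusted p of 0.068.

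The combination lay below olaparib alone by -0.30 ± 0.06 at 72 h (edgeR adjusted p = 2.9e-04), and by -0.27 to -0.32 in the lanes. At 24 h the same comparison gave -0.24 ± 0.06 (adjusted p = 0.0076), from 149, 143 and 161 CPM with olaparib and 123, 126 and 132 with the combination, and it was lost without replicate 3 of olaparib (adjusted p = 0.054). Against DMSO at 72 h the combination gave -0.16 ± 0.07 (adjusted p = 0.04), a call lost in 10 of 14 alternatives and -0.07 (adjusted p = 0.37) without replicate 1 of DMSO. Leaving out that library also moved olaparib against DMSO at 72 h from 0.14 (adjusted p = 0.14) to 0.23 (0.0049). HSD17B4 at 8 h stood at 124 to 148 CPM in all 12 libraries, and no comparison with DMSO passed.

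HSD11B2 (chr16:67430652-67437553, plus strand) inactivates cortisol to cortisone, which shields steroid receptors from glucocorticoid. It stood at 32.6 to 54.1 CPM, with group means within 1.29-fold of each other and intervals against DMSO between -0.39 and 0.43. Its nearest approach to a call was enzalutamide at 72 h, where DMSO libraries stood at 32.6, 47.0 and 45.7 CPM and enzalutamide libraries at 50.6, 47.3 and 52.9. The groups did not overlap, but the change of 0.24 had an edgeR adjusted p of 0.069. It was 0.12 (adjusted p = 0.38) without replicate 1 of DMSO and 0.33 (0.023) without replicate 2, and it also passed with upper quartile scaling (0.043) or lane in the fit (0.031).

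Read by comparison, the number of the 8 genes that passed stood as follows against the share of all genes tested that passed. With enzalutamide 1 of 8 passed at 8 h (background 3.02%), 0 at 24 h (18.8%) and 2 at 72 h (27.2%). With olaparib it was 0 at 8 h (1.32%), 0 at 24 h (1.12%) and 2 at 72 h (17.9%), and with the combination 0 at 8 h (5.98%), 1 at 24 h (21.6%) and 3 at 72 h (42.5%). At 72 h these counts are close to what the background share gives for 8 genes. Where edgeR passed none, genes with an unadjusted p under 0.05 numbered 1 for enzalutamide at 24 h and 1 for the combination at 8 h. For olaparib they numbered 0 at 8 h and 1 at 24 h. DESeq2 passed none in any of the 4, but gave no adjusted p for CYP11A1 in any of them. It also gave none for HSD17B6 and HSD17B11 with olaparib at 8 and 24 h or the combination at 8 h. The median absolute log2 fold change of the 8 genes at 72 h was 0.20 with enzalutamide, 0.14 with olaparib and 0.23 with the combination, and over all genes tested 0.21, 0.18 and 0.29.

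Adding olaparib to enzalutamide changed none of the 8 genes by the edgeR test at 8 h (background 0.654%), 24 h (1.92%) or 72 h (14.5%). At an unadjusted p under 0.05 there were 1, 0 and 2, and DESeq2 passed none. It gave no adjusted p for CYP11A1 and HSD17B6 at 24 and 72 h, nor for HSD17B11 at 24 h. Adding enzalutamide to olaparib changed 0 genes at 8 h (background 2.19%; 2 at an unadjusted p under 0.05, 0 by DESeq2), and CYP11A1 and HSD17B4 at 24 h (13.6%) and at 72 h (34.2%). These comparisons share the combination libraries. For enzalutamide added to olaparib at 8 h, DESeq2 gave no adjusted p for CYP11A1, HSD17B6 or HSD17B11. No gene departed from the sum of the single effects by edgeR or DESeq2 at 8, 24 or 72 h. The background shares were 0%, 0% and 2.26%, and 1, 0 and 1 of the 8 genes had an unadjusted p under 0.05. At 72 h DESeq2 gave no adjusted p for CYP11A1, HSD17B6, HSD17B11 or STS.

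Between 8 h and 72 h, the enzalutamide effect changed for 2 genes (background 10.2%), the olaparib effect for 1 (9.71%) and the combination effect for none (22.9%; 2 at an unadjusted p under 0.05, 0 by DESeq2). The DMSO cultures themselves gave no call for the 8 genes at 24 h against 8 h (background 0.648%) or 72 h against 8 h (2.81%). This held by edgeR and DESeq2, with 1 gene at an unadjusted p under 0.05 in each. DESeq2 gave no adjusted p for CYP11A1 or HSD17B6 in either, nor for HSD17B11 at 24 h against 8 h.

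The other genes of the pathway were read from a list of 58, of which 28 passed the expression filter and 10 had no count in any library. Several genes of steroid synthesis, named after their values were seen, were close to undetected: CYP17A1 had 1 count over the 36 libraries, HSD3B2 5, HSD3B1 31, STAR 43, and HSD17B3, CYP11B1 and CYP11B2 none. Of the 28, enzalutamide raised 0 at 8 h, 6 at 24 h and 7 at 72 h, and lowered 0, 1 and 7. Olaparib raised 1, 1 and 3 and lowered 0, 0 and 6, and the combination raised 1, 7 and 10 and lowered 0, 3 and 7. The count of 0 for enzalutamide at 8 h stands beside 1 at an unadjusted p under 0.05. In either direction enzalutamide changed 0, 7 and 14 of the 28 at 8, 24 and 72 h, against 3.02%, 18.8% and 27.2% of all genes tested. For olaparib these were 1, 1 and 9 (background 1.32%, 1.12% and 17.9%), and for the combination 1, 10 and 17 (5.98%, 21.6% and 42.5%).

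**Figure D4:**
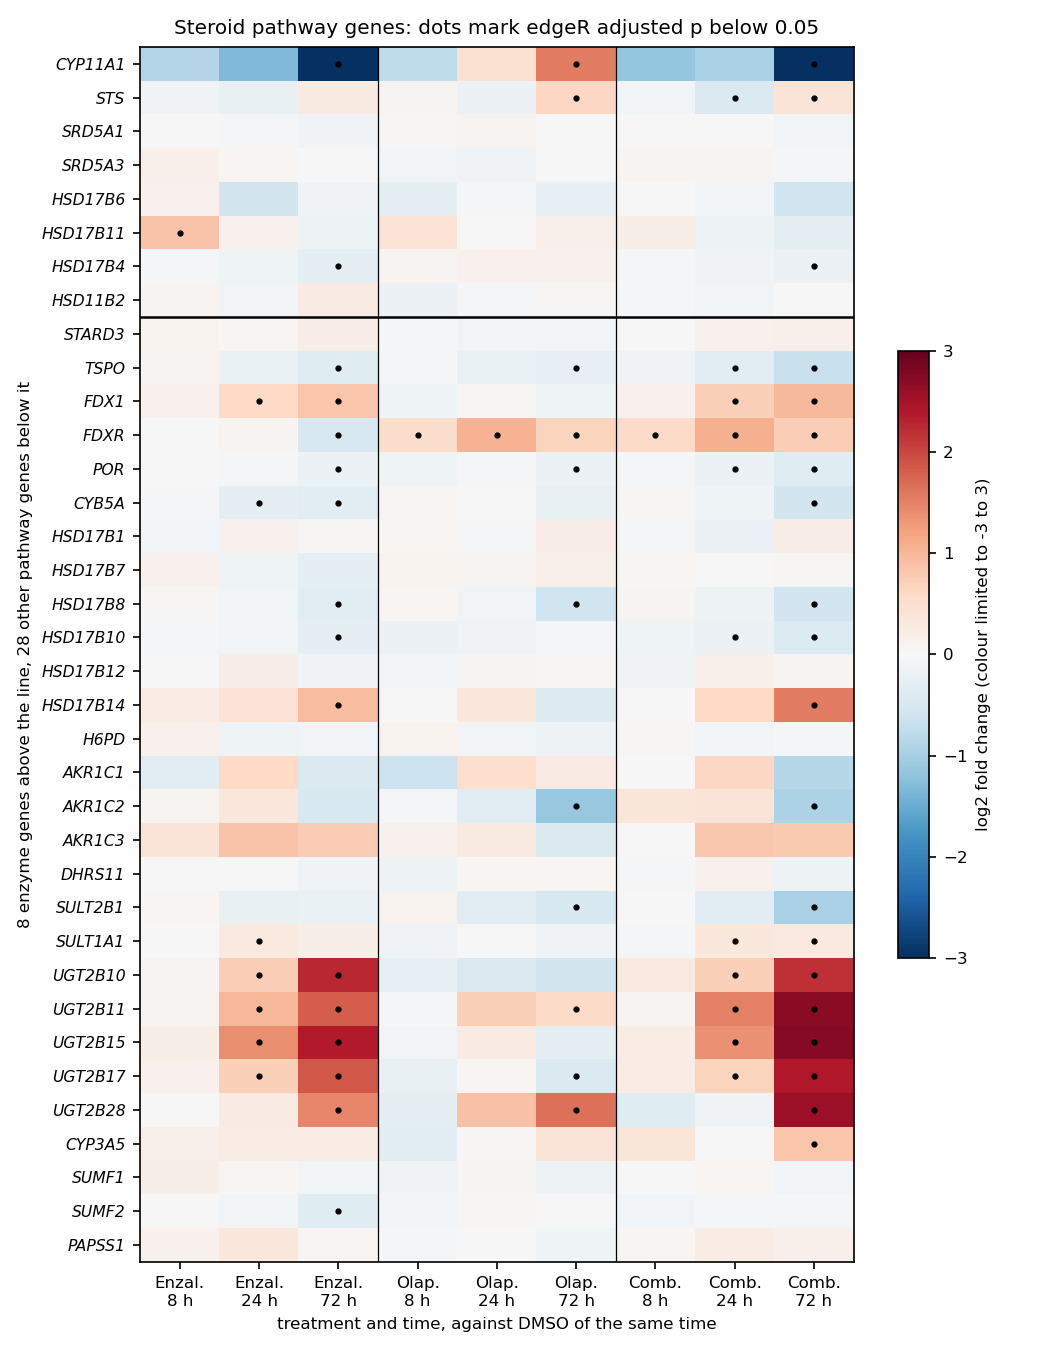
Log2 fold change against DMSO of the same hour for the 8 enzyme genes (above the line) and 28 other pathway genes (below it); red is higher, blue is lower, colour is limited at 3, and dots mark an edgeR adjusted p below 0.05. The UGT2B genes are red at 72 h with enzalutamide and the combination, FDXR is red in all olaparib and combination columns, and SRD5A1, SRD5A3, HSD17B6 and HSD11B2 carry no dot.

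The largest changes among these genes were in the UGT2B family. UGT2B15, which glucuronidates dihydrotestosterone, went from 17.3 ± 2.40 CPM with DMSO to 91.9 ± 5.25 with enzalutamide at 72 h (log2 2.37 ± 0.11, edgeR adjusted p = 3.6e-20) and 118 ± 17.4 with the combination (2.72 ± 0.11, 4e-22). UGT2B10, UGT2B11, UGT2B17 and UGT2B28 also rose in both groups at 72 h, by 1.46 to 2.25 and 2.20 to 2.71. Olaparib alone at 72 h raised UGT2B28 by 1.64 (edgeR adjusted p = 0.013) and UGT2B11 by 0.58 (0.037), and lowered UGT2B17 by -0.43 (0.022). All of these olaparib calls were lost on the 2 groups alone (adjusted p 0.052 to 0.17). These genes are paralogs of one family, and how reads divided between them was not tested. UGT2B28 had a mean of 1.02 CPM over the 36 libraries. Its enzalutamide call was lost without replicate 2 or 3 of DMSO or replicate 1 of enzalutamide (adjusted p 0.073 to 0.15), and with DESeq2 (0.053).

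Oxidation and reduction at the steroid ring showed smaller shifts. HSD17B14, which can oxidise estradiol, rose from 2.15 ± 0.384 CPM with DMSO to 4.14 ± 0.978 with enzalutamide (0.92 ± 0.26, edgeR adjusted p = 0.006; 0.72 and 0.064 without replicate 1 of enzalutamide) and 6.35 ± 1.17 with the combination at 72 h (1.54 ± 0.25, 3.1e-06). AKR1C2, which inactivates dihydrotestosterone, fell from 3.26 ± 0.590 to 1.46 ± 0.402 CPM with olaparib (-1.13 ± 0.26, 0.0022; 0.051 on the 2 groups alone) and 1.54 ± 0.405 with the combination (-0.95 ± 0.27, 0.0044). Enzalutamide had AKR1C2 at 2.29 ± 0.241 CPM at 72 h, without a call. The AKR1C genes are close paralogs, and their counts may be split between copies.

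Genes with a like profile across the 12 group means were sought for 7 of the 8 genes, CYP11A1 being too low, among 12565 genes with a mean of at least 1 CPM. Pearson correlations with the closest genes, given as a description over 12 means from the same libraries, were 0.94 for SRD5A1 with PERP, 0.92 for HSD17B4 with RAB4A and 0.91 for STS with ALG1L9P and for HSD11B2 with AKR7A2. SRD5A3 reached 0.90 with ARHGAP21 and HSD17B11 0.80 with GABPA. For SRD5A1 the group means varied by an SD of only 0.06 on the log2 scale, so its correlation describes small differences. HSD17B4 also followed CYFIP1 and PCYT1A at 0.91, and STS followed PCNX4 (0.91) and PALB2 (0.90).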

How the data were processed

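Counts per gene were made by the authors with featureCounts 2.0.0 on paired reads, without strand, with fragments of 20 to 5000 bases and the Ensembl 99 annotation, per the file headers; STAR and hg38 are named in the submitters' processing notes, without a version. Exon length in bases comes from the same table. Of 60676 genes, 60357 matched a symbol. The series' design text says each condition was done in triplicate cultures, which are the replicates.

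All 36 libraries entered 1 edgeR 4.0.16 quasi-likelihood fit (R 4.3.3) of 12 group means with TMM scaling and the filterByExpr filter, which left 15744 genes, with 24 residual degrees of freedom. The 12 groups share 1 spread per gene (common biological coefficient of variation 6.44%). Adjusted p values are Benjamini-Hochberg over all genes tested in each of 23 contrasts, called below 0.05. The ± after a CPM is an SD. After a log2 fold change it is an SE worked back from the test, as the absolute change over the square root of its F value. The 95% intervals of log2 fold changes rest on this SE. Where a group held few counts, as for CYP11A1 at 72 h, it is only approximate. Count ratios of CYP11A1 have exact binomial 95% intervals, which cover counting error only. The test was also tried on simulated counts that took each gene's spread from this fit. Changes were planted only in genes with more counts on average than CYP11A1 and HSD17B6, so that trial does not cover them.

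The 8 genes were given, and a mean under 1 CPM was the limit for a level that can be judged. Of the other 58 pathway genes, the 8 with the largest called log2 fold change and a mean of at least 1 CPM are named; FDX1 and the barely counted genes, like all motifs but the androgen receptor ones, was chosen after values or sequences were seen. The gene closest in profile to HSD17B6 is not reported here. The genes and lists were chosen with earlier results of these data known. RefSeq promoter windows (250 bases before to 50 after a start) were matched by symbol for 6 of 8 genes, in 10 windows; HSD17B6 and HSD11B2 had none and are named only. Alternatives were RLE and upper quartile scaling, no filter, replicate or lane as a block, only the groups compared, DESeq2 1.42.0 and leaving out each library; leaving out the 3 libraries that stood apart was added after seeing the data.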

Additional observations from a re-analysis of the deposited data

Results flagged for a closer look

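The values below are differences of effects that passed an edgeR adjusted p of 0.05 in a test of the difference itself. The effect of enzalutamide at 72 h differed from that at 8 h for CYP11A1 by -2.64 (adjusted p = 0.042) and for HSD17B11 by -1.02 (adjusted p just under the threshold, 0.05 after rounding). Among the other pathway genes it differed for FDX1 by 0.69, UGT2B10 by 2.17, UGT2B11 by 1.74, UGT2B15 by 2.19 and UGT2B17 by 1.74. The effect of olaparib differed between these hours for CYP11A1 by 2.30 (adjusted p = 0.0039) and for AKR1C2 by -1.10 (adjusted p = 0.049). The effect of the combination differed for FDX1 by 0.83, HSD17B14 by 1.54, AKR1C2 by -1.32, UGT2B10 by 1.90, UGT2B11 by 2.63, UGT2B15 by 2.51, UGT2B17 by 2.18 and UGT2B28 by 2.92.

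At 72 h the combination lay above the sum of the single effects for FDXR by 0.55 (adjusted p = 0.049), UGT2B15 by 0.66 (adjusted p = 0.013) and UGT2B17 by 0.97 (adjusted p = 3.9e-04). None of the 8 enzyme genes passed that test. All log2 values rest on DMSO libraries that the effects share, and replicate 1 of DMSO at 72 h, which stood apart, enters each of them. Without it the enzalutamide difference was -2.66 (adjusted p = 0.054) for CYP11A1 and -1.07 (adjusted p = 0.053) for HSD17B11, both no longer past the threshold, and the olaparib difference of CYP11A1 still passed. The differences of the other pathway genes were not tested without that library. For FDXR the 72 h effects behind the 0.55 moved when it was left out. Enzalutamide went from -0.47 to -0.23, olaparib from 0.66 to 0.90 and the combination from 0.74 to 0.98.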

How the results depend on the processing

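Of 2818 repeats of the member tests under other settings, 2727 kept their side of the threshold, 63 lost a call and 28 gained one. Most repeats were of tests without a call in the main fit, which had none to lose. The 63 are therefore not a share of 2818. Among called tests, losses ran from 0 of 14 (CYP11A1, combination against olaparib at 72 h) to 17 of 20 (HSD17B11, enzalutamide effect over time). No called change reversed, while some uncalled changes near 0 changed sign. The number of the 8 genes called moved as follows. A gene for which DESeq2 gave no adjusted p counts here as not called. For enzalutamide at 8 h it was 0 without a filter, on the groups compared alone and with DESeq2, against 1; at 24 h 1 with lane as a block, against 0; at 72 h 0 on the groups alone, where CYP11A1 no longer passed the filter, and 3 with upper quartile scaling or the lane block, against 2. For olaparib at 72 h it was 1 on the groups alone and with DESeq2 and 3 without the 3 libraries apart, against 2. For the combination at 72 h it was 0 on the groups alone and 2 with RLE or upper quartile scaling, no filter, DESeq2 or without the 3 libraries apart, against 3. For the combination against olaparib at 24 h it was 1 with upper quartile scaling, no filter or DESeq2 and 3 without the 3 libraries apart, against 2. For the enzalutamide effect at 72 h against 8 h it was 1 with upper quartile scaling, the replicate block or the lane block and 0 with no filter, the groups alone, DESeq2 or without the 3 libraries apart, against 2. For the olaparib effect it was 2 with the lane block and 0 with DESeq2, against 1. Leaving out single libraries gave 0 to 1 for enzalutamide at 8 h and at 24 h, 2 to 4 at 72 h, 2 to 3 for olaparib at 72 h, 0 to 1 and 1 to 3 for the combination at 24 and 72 h, 0 to 2 for the combination against olaparib at 24 h, 0 to 1 for the departure at 72 h, 0 to 3, 1 to 2 and 0 to 1 for the enzalutamide, olaparib and combination effects over time, and 0 to 1 for DMSO at 72 h against 8 h. The replicate numbers did not pair the samples: 3 of 54 pairs with the same number had deviations correlated above 0.1 (mean -0.00569), and 5 of 54 for lane (mean 0.0383). With the replicate block the enzalutamide effect on HSD17B11 over time was -0.99 (adjusted p = 0.053), the only call of the 8 genes that the block changed. Depth limits CYP11A1, HSD17B6 and HSD17B11, with at most 36, 22 and 40 counts in a library.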
